A study of Homo sapiens with 6 samples.

Results

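The regions described here are accessible sites of 22Rv1, a human prostate cancer line long kept in culture. They lie in stretches of the genome where few sites were open at 0 h of a FOXA1 degradation time course. Peaks of the 6 deposited lists were merged wherever they overlapped by 1 bp, on the 22 autosomes and X. Regions with a peak in both 0 h libraries were counted in fixed 1 Mb windows of the hg19 genome, each region placed by its midpoint. A window was taken as peak-poor if it held 1 to 10 such regions, and every merged region in it was kept. This gave 3306 of 167726 regions (1.97%), in 192 of the 2888 windows that held any region (6.65%). The lower limit removed no window. Because 0 h peaks chose the windows, the number of 0 h regions per window is a description and no finding, and each comparison with 0 h shares its libraries with the choice.

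All 6 libraries were ATAC-seq of 22Rv1 cells and carry the label FOXA1_dTAG; 2 were made at 0 h, 2 at 1 h and 2 at 24 h. The series concerns how pioneer factors shape cohesin loading and genome folding, and the time course asks which open sites depend on FOXA1 early and late. The labels give neither the degrading molecule nor its dose, nor whether the tagged cells were 1 clone, and they name no library of cells without the tag. They do not say whether replicates were separate cultures, so the spread between libraries may be technical. The level of FOXA1 was not measured in these lists, and the cell line was not checked against marker loci.

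FOXA1 is a forkhead pioneer factor: it can bind its sites on nucleosomal DNA and make them accessible to other factors, among them the androgen receptor in luminal prostate cells. The dTAG system fuses a protein to a domain that a bifunctional small molecule ties to a ubiquitin ligase, so that the protein is degraded quickly. ATAC-seq uses a transposase that inserts adapters where DNA is open, and a peak is a place where insertions exceed their surroundings. Long stretches with few open sites are often gene deserts or lamina-bound, late-replicating chromatin, where the accessible sites that exist are mostly distal elements. No hg19 annotation or sequence was used here, so regions are named by hg19 position, without genes or motifs.

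Depth and list length differed along with time, though not evenly. At 0 h 118259 and 125396 peaks were listed, at 1 h 110661 and 117942, and at 24 h 101755 and 114362. The modal background of a list was 1.62 and 0.92 at 0 h, 1.40 and 1.38 in the 1 h libraries, and 1.08 and 0.96 at 24 h. Divided by the width of the list's shortest peak, it was taken as a relative depth. This was 10.5 and 8.29 tags per kb at 0 h, 8.14 and 8.63 in the 1 h libraries, and 7.35 and 7.06 at 24 h. By this estimate 0 h and 1 h overlapped, and both 24 h libraries were lowest. Beyond lists shortened to one length, the part of depth in the results below was not tested. The first 24 h library had the shortest list and stood apart from its replicate, and the main 24 h values are also given without it.

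By number and spacing of regions, peak-poor windows were sparse as a set. Their median number of merged regions was 17, with a range of 3 to 33, compared with a median of 58.5 in other windows. The distance from a region present in both 0 h libraries to the next such region had a median of 38.8 kb, against 8.08 kb elsewhere. Of the 1420 peak-poor regions present in both 0 h libraries, 247 (17.4%) lay over 100 kb from the next, against 607 (0.619%) of the other 98074. These distances follow largely from the rule.

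Fewer peak-poor regions were shared by all libraries. A peak in all 6 lists was found for 893 of the 3306 (27.0%), against 71802 (43.7%) in other windows. Regions seen in a single library numbered 1052 (31.8%), against 36634 (22.3%). The windows were chosen for few regions in both 0 h libraries, so both contrasts follow in part from the rule. Of the regions in both 0 h libraries, 62.9% were in all 6 lists, against 73.2% in other windows. Of the 1052 peak-poor regions in a single library, 443 were seen in one 0 h library, 296 in one 1 h library and 313 in one 24 h library. Regions that rest on 1 list each were thus a larger part of the peak-poor set, and the calls of loss and gain below use only those present in both libraries of a time.

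In each library, peak-poor regions were weaker than the rest. The fold, the authors' ratio of the summit pileup to its local background, can be compared only by rank within a list. The median percentile of fold was 42.8 and 44.5 at 0 h, 41.4 and 40.3 in the 1 h libraries, and 43.4 and 40.002 at 24 h. In other windows it lay between 49.9 and 50.7 in the 6 libraries, so the peak-poor median was the lower one in each.

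The pileup at the summit, the number of fragments stacked there as recovered from fold and −log10 p, set them further apart. Its median was 15 and 11 fragments in peak-poor regions at 0 h, against 22 and 16 in other regions. It was 12 and 13 against 19 and 19 in the 1 h libraries, and 13 and 10 against 18 and 16 at 24 h. By rank of pileup the peak-poor median stood at percentiles of 31.4 and 31.3 at 0 h, 27.3 and 30.7 in the 1 h libraries, and 32.0 and 27.3 at 24 h. The gap to the other regions was thus wider by rank of pileup than by rank of fold.

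The local background was at its genome-wide floor for most of them. Within 2% of each list's most frequent background lay 75.6% and 78.1% of peak-poor peaks at 0 h, against 33.0% and 36.0% of other peaks. At 1 h the shares were 75.8% and 76.2%, against 35.7% and 35.0%. At 24 h they were 73.4% and 78.1%, against 29.2% and 34.9%. Peak-poor and other peaks were well apart in every library.

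Peak-poor peaks were also narrower. The median width per library was 305 and 215 bp at 0 h against 392 and 289 bp elsewhere, 335 and 292 bp against 419 and 376 bp in the 1 h libraries, and 261 and 254 bp against 347 and 332 bp at 24 h. Peaks called strong here, with a −log10 q of at least 10, made up 40.1% and 36.2% of peak-poor regions at 0 h, 34.8% and 34.9% in the 1 h libraries, and 38.4% and 30.6% at 24 h. The lowest share among other regions was 47.8%, in a 24 h library. Of the peak-poor peaks, the top 10% of each list by fold still took in 9.47% and 8.07% at 0 h, 8.58% and 7.98% in the 1 h libraries, and 8.81% and 6.87% at 24 h. Some of these sites were thus among the strongest of the genome by fold.

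**Figure D1:**
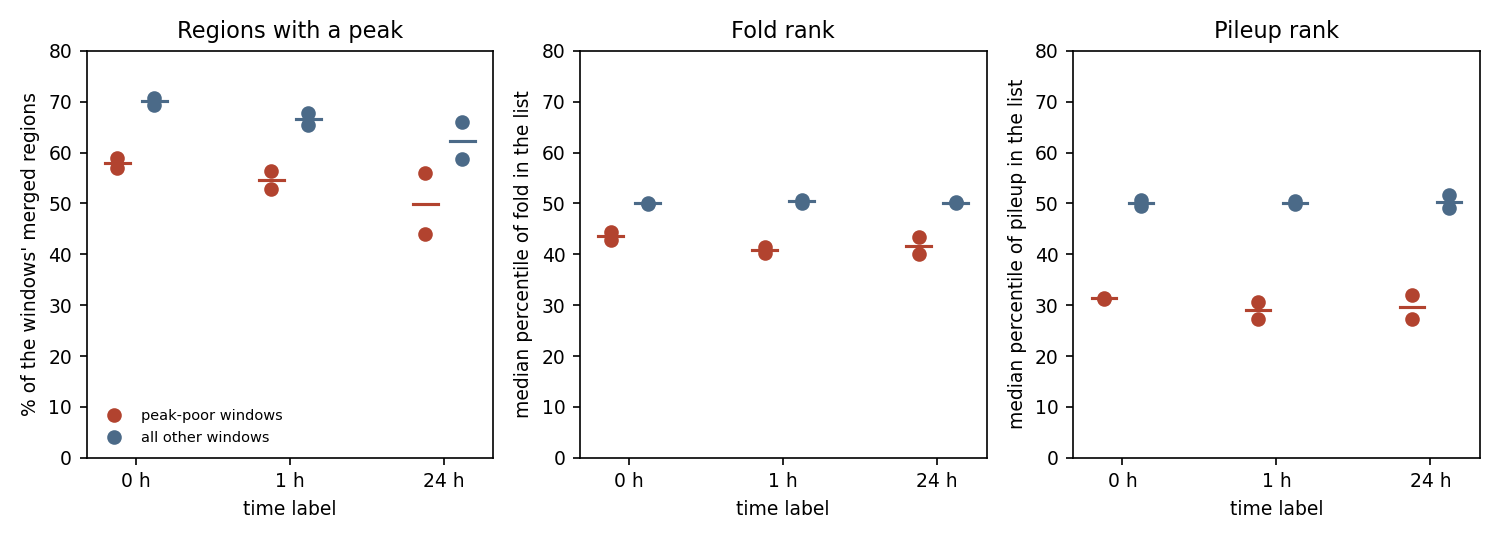
Values of peak-poor regions (red) and of regions in all other windows (blue) at 0 h, 1 h and 24 h, with 1 point per library and a bar at the mean of 2: the percent of the merged regions with a peak, the median percentile of fold and the median percentile of summit pileup. Peak-poor points lie below the others in each library on all of these, at 40.002 to 44.5 for fold and 27.3 to 32.0 for pileup.

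The share of the accessible sites that lay in peak-poor windows was 1.62% and 1.64% of a library's regions at 0 h, 1.60% and 1.65% in the 1 h libraries, and 1.48% and 1.68% at 24 h. The mean was 1.58% ± 0.137 at 24 h against 1.63% ± 0.0156 at 0 h (SD, n = 2 each), a difference of −0.0538 percentage points. At 1 h the difference from 0 h was −0.00836 points. The libraries of both later times lay on both sides of those of 0 h. Without the first 24 h library the difference at 24 h was 0.0428 points, of the opposite sign. Since 0 h chose the windows, these differences are descriptions.

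Other comparisons did not use the libraries that chose the windows. With windows chosen at 1 h, the share at 24 h differed from that at 0 h by −0.244 points, and with windows chosen at 24 h the share at 1 h differed from that at 0 h by −0.308 points. In both the libraries did not overlap, with an exact two-sided permutation p of 0.333, the smallest that 2 against 2 libraries can give. Between 24 h and 1 h, in the windows chosen at 0 h, the difference was −0.0454 points, with overlap and an exact permutation p of 1. The size of the difference thus depended on the time that chose the windows. It depended on the limit and the peak threshold too: up to 20 regions per window gave −0.693 points at 24 h and −0.323 at 1 h, and strong peaks alone, with a −log10 q of at least 10, gave −0.797 and −0.659.

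The number of regions in the windows was lower at the later times. Peaks were found for 1880 and 1945 of the 3306 regions at 0 h, for 1748 and 1866 in the 1 h libraries, and for 1453 and 1849 at 24 h. The mean share was 49.9% ± 8.47 at 24 h against 57.8% ± 1.39 at 0 h (SD, n = 2 each), and the libraries did not overlap. In the other windows it was 62.3% ± 5.14 at 24 h against 70.0% ± 1.00 at 0 h. Much of the difference came from the first 24 h library: without it the 24 h value was 55.9% in peak-poor and 65.95% in other windows, a difference from 0 h of −1.92 and −4.08 points. At 1 h the peak-poor mean was 54.7% ± 2.52, again without overlap with 0 h. In the other windows it was 66.5% ± 1.67 at 1 h, also without overlap. The differences from 0 h were −3.19 points in peak-poor and −3.53 in other windows. List length differed along with these shares.

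The median fold percentile of the peak-poor regions was 41.7 ± 2.37 at 24 h against 43.6 ± 1.16 at 0 h (SD, n = 2 each), and the libraries overlapped. At 1 h it was 40.8 ± 0.764, with no overlap with 0 h. Both differences, −1.96 and −2.82 points, changed sign with some other choices of windows or peaks, so no direction is given to them. Between 24 h and 1 h the difference was 0.863 points, with overlap and an exact two-sided permutation p of 1.

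Taken one pair of libraries at a time, a peak-poor region seen at 0 h often had no peak in a second library, and more often so the later that library was. Of the regions of one 0 h library, 24.5% and 27.0% had no peak in the other 0 h library, a mean of 25.7%. No peak was found in a 1 h library for 27.0% to 33.4%, with a mean of 30.2% over the 4 pairs, and in a 24 h library for 34.3% to 43.5%, with a mean of 39.1%. The pairs share libraries, so their spread is no standard error. All 4 values at 24 h were higher than all 4 at 1 h. Without the first 24 h library the mean at 24 h was 35.97%. With all lists trimmed to an equal number of peaks and the windows kept as chosen, the means were 22.8% between 0 h replicates, 26.95% at 1 h and 32.7% at 24 h.

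Each of these shares was higher in peak-poor windows than in the rest. The other windows gave means of 14.8% between 0 h replicates, 19.9% at 1 h and 26.5% at 24 h. Peak-poor exceeded other windows by 12.7 percentage points at 24 h (10.7 to 14.1 over the 4 pairs), by 10.3 points at 1 h, and by 9.26 points on average between replicates of one time (3.92 to 12.3 over 6 pairs). On average, most of the excess was thus already there between replicates. It was 10.5 and 11.3 points between 0 h replicates, 7.75 and 9.71 between 1 h replicates, and 3.92 and 12.3 between 24 h replicates. After subtraction of the 0 h replicate value, 13.4 points remained at 24 h in peak-poor windows and 11.7 in other windows. Without the first 24 h library these were 10.2 and 9.44 points. The 0 h libraries also chose the windows, so the value subtracted is tied to the rule. At 1 h, 4.49 points remained in peak-poor windows and 5.07 in other windows. In the reverse direction, 28.9% of the peak-poor regions of a 24 h library had no peak in a 0 h library (23.7% to 34.4% over the 4 pairs), less than the 39.1% in the forward direction.

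In strong peaks replicates differed little, and the values of the 3 times lay well apart. Of the strong peak-poor regions of one 0 h library, 1.46% and 1.85% had no peak in the other. In a 1 h library 4.69% to 8.10% had none, and in a 24 h library 10.8% to 16.9%. The means were 1.65%, 6.82% and 13.7%, against 0.444%, 3.59% and 7.57% in other windows. Without the first 24 h library the 24 h means were 12.04% and 6.65%. In the reverse direction, 5.48% of strong peak-poor 24 h regions had no peak in a 0 h library.

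The share without a peak fell with the number of 0 h sites in the window, and so did the share between replicates. The mean share of 0 h regions without a peak in a 24 h library was 39.1% in peak-poor windows. It was 36.4% in windows with 11 to 20 regions, 29.8% with 21 to 40, 22.8% with 41 to 80 and 15.8% with more than 80. Between 0 h replicates the same classes gave 25.7%, 19.8%, 16.3%, 13.1% and 9.25%. After subtraction of these, 13.4, 16.6, 13.4, 9.73 and 6.57 points remained at 24 h. At 1 h, 4.49, 7.63, 5.81, 4.14 and 3.46 points remained. The class of 11 to 20 stood highest at both times. However, the subtracted values came from the 0 h libraries that set the classes. Replicates of 1 h and of 24 h gave means of 23.7% and 24.04% in peak-poor windows, both below the 0 h value. In the class of 11 to 20 they gave 19.96% and 21.7%, both above the 0 h value. The order of the classes after subtraction is therefore not read as a finding. Without the first 24 h library the remainders at 24 h were 10.2, 12.9, 10.7, 8.05 and 6.10 points. For strong regions the mean shares without a 24 h peak, over all 4 pairs and without subtraction, were 13.7%, 13.9%, 9.57%, 5.66% and 2.96%. Peak-poor windows and the next class up thus had about the same share. No break was seen at the limit of 10: of the regions in both 0 h libraries, 22.2% and 20.9% had no 24 h peak in windows with 9 and with 10 such regions, and 20.1% and 20.3% had none in windows with 11 and with 12.

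**Figure D2:**
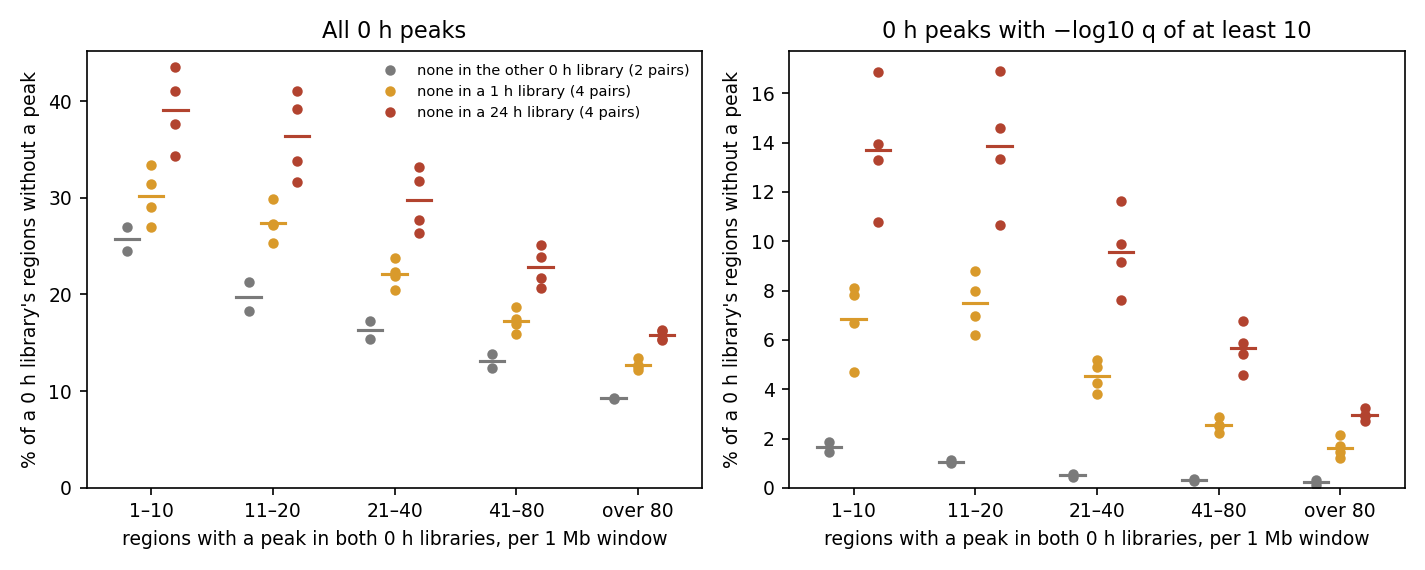
Share of regions without a peak in a second library, in percent, by the number of both-0 h regions in the 1 Mb window, for all peaks and for strong peaks. Grey points are the 2 pairs of 0 h replicates, orange points the 4 pairs of a 0 h with a 1 h library and red points the 4 pairs of a 0 h with a 24 h library, and the 24 h means run from 39.1% in peak-poor windows to 15.8% in windows with more than 80 regions.

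A stricter call needs a peak in both earlier libraries and none in either later one. By this call 159 of the 1420 peak-poor regions were lost at 1 h (11.2%, where 7.48% of all regions were called) and 282 at 24 h (19.9%, where 13.1% were called). Gains, the reverse, numbered 95 of 1377 at 1 h (6.90%, against 3.93% of all regions) and 156 of 1236 at 24 h (12.6%, against 6.54%). Peak-poor windows therefore had a higher share of both losses and gains than all regions together. They also had a higher share of regions without a peak between 0 h replicates. In windows with 11 to 20 regions the share lost was similar, 11.5% at 1 h and 19.5% at 24 h. The share gained there was 5.86% at 1 h and 9.59% at 24 h.

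For strong regions losses outnumbered gains. At 1 h, 14 of 591 strong peak-poor regions were lost (2.37%, with 1.51% of all strong regions called) and 0 of 525 were gained (with 0.0338% called). At 24 h, 50 of 591 were lost (8.46%, with 4.02% called) and 7 of 454 gained (1.54%, with 0.748% called). In the windows with 11 to 20 regions, 8.19% of the strong regions were lost at 24 h, close to the peak-poor value.

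The step from 1 h to 24 h does not use the libraries that chose the windows. Over it, 147 of 1377 peak-poor regions were lost (10.7%, with 6.42% of all regions called). Gains were 85 of 1236 (6.88%, with 3.85% called). In windows with 11 to 20 regions 9.53% were lost and 5.36% gained. For this step, strength was read at 1 h for losses and at 24 h for gains. By that reading 1 of 525 strong regions was lost (with 0.0896% of all strong regions called) and 0 of 454 gained (with 0.151% called). Sites strong at 0 h form a different set. Among the 50 of these lost at 24 h, 16 still had a peak in a single 1 h library, 20 had it in both and 14 had none. The share of a library's regions in peak-poor windows did not separate 24 h from 1 h, with a difference of −0.0454 points and an exact permutation p of 1.

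These counts depend on how many libraries must meet the condition, so leaving one out raises them by construction. Without the first 24 h library, 343 regions were lost (24.2%) and 478 gained (25.9%), where 16.7% and 14.8% of all regions were called. Without the second 24 h library, 421 were lost (29.6%) and 245 gained (16.9%), where 20.7% and 10.7% were called. Without the first 0 h library, 632 were lost (32.5%) and 237 gained (19.2%), where 20.996% and 10.04% were called. Without the second, 556 were lost (29.6%) and 217 gained (17.6%), where 19.6% and 9.998% were called. Strong losses at 24 h were 54 to 88 in these 4 cases (8.81% to 11.8%, with 4.79% to 6.31% of all strong regions called), against 13 to 18 strong gains. At 1 h, leaving out a library gave 235 to 480 losses (16.5% to 24.7%, with 11.3% to 15.3% called) and 178 to 345 gains (12.9% to 18.5%, with 7.54% to 11.2% called). Gains outnumbered losses without the first 24 h library and without either 1 h library.

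Net change depended on when the windows were chosen. With the windows chosen at 0 h, 1420 peak-poor regions were present in both 0 h libraries, 1377 in both 1 h libraries and 1236 in both 24 h libraries. The change was −3.03% at 1 h and −13.0% at 24 h, and in other windows −5.25% and −12.4%. When the windows were chosen by the same limit at 24 h, 328 windows qualified, with 6982 regions, and their change at 24 h was −32.0%. Chosen at 1 h, 245 windows qualified, and the change was −23.6% at 24 h. A choice made at one time favours windows whose count was low then, so none of these net values is read as particular to peak-poor chromatin. Of the strong regions, the share lost at 24 h was 12.0% in windows chosen at 1 h and 13.0% in those chosen at 24 h, both above the 8.46% given by the choice at 0 h.

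The weak regions carried most of the loss. With the 1420 regions put in 10 steps by their mean 0 h percentile of fold, 50.6% of those in the second step from the bottom and 4.58% of those in the top step had no 24 h peak. In other windows 30.7% and 1.86% had none in the same steps. The lowest step held 32 peak-poor regions, of which 31.25% were lost at 24 h, against 29.1% in other windows, and 9.38% at 1 h, against 21.2%. The peak-poor share was higher in 10 of 10 steps at 24 h and in 9 of 10 at 1 h. Other regions at the same fold would have lost 13.3%, against the 19.9% lost in peak-poor windows.

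At equal −log10 q, other regions would have lost 16.0%, which leaves a difference of 3.87 points, with peak-poor higher in 9 of 10 steps. At equal summit pileup they would have lost 18.3%, which leaves a difference of 1.52 points, with peak-poor higher in 7 of 10 steps. At 1 h the difference at equal pileup was 0.359 points, and peak-poor was higher in 4 of 10 steps. In the lowest pileup step 56.5% of 62 peak-poor regions were lost at 24 h, against 44.2% in other windows. In the top pileup step 0 of 43 peak-poor regions were lost at 24 h, against 0.140% in other windows. These matched values were chosen after the data had been seen.

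**Figure D3:**
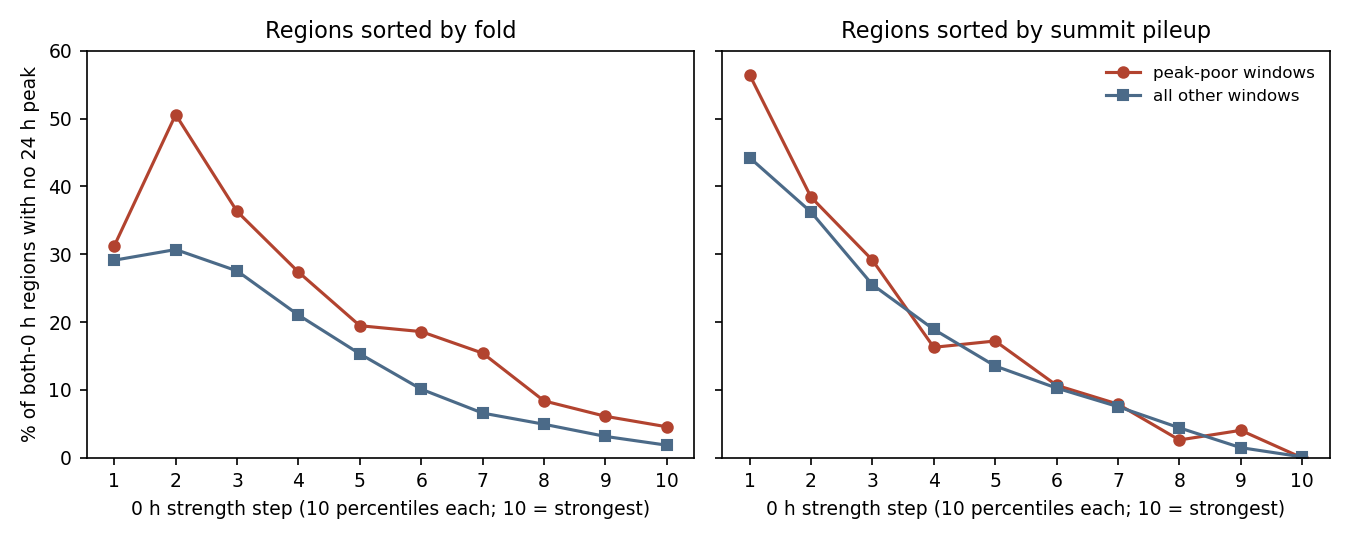
Share of regions with a peak in both 0 h libraries and none in either 24 h library, in percent, by step of 0 h strength from the weakest (1) to the strongest (10), for peak-poor (red circles) and other windows (blue squares). Sorted by fold (left) the peak-poor share is higher in 10 of 10 steps. Sorted by summit pileup (right) it is higher in 7 of 10, with the curves apart in step 1, at 56.5% against 44.2%.

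The 282 regions lost at 24 h differed in their state at 1 h. No 1 h library held 135 of them, one held 88 and both held 59. In other windows these numbers were 5766, 3593 and 3378 of 12737. Conversely, of the 159 lost at 1 h, 135 (84.9%) had no 24 h peak either, 19 had one in a single library and 5 in both. In other windows 79.2% of those lost at 1 h had no 24 h peak. All 14 strong losses of 1 h also lacked a peak at 24 h, as did 92.3% of those in other windows. Among the 50 strong losses at 24 h, 14 had no 1 h peak, 16 had it in one library and 20 in both. In other windows these numbers were 739, 530 and 858 of 2127. The comparisons at 1 h and 24 h share the 0 h libraries, so part of this overlap follows from them.

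Of the 156 regions gained at 24 h, 63 had no 1 h peak, 59 had it in one library and 34 in both. In other windows these numbers were 2184, 1868 and 1488 of 5540. None of the 7 strong peak-poor gains came without a peak at 1 h: 4 had it in one library and 3 in both. In other windows 51 of 336 strong gains had no 1 h peak, so 0 of 7 is not read as a difference. Gained regions were weak, with median folds of 5.30 and 5.11 in the 24 h libraries. Regions lost at 24 h had median 0 h folds of 5.35 and 5.22, with summit pileups of 13.5 and 10 fragments. The 893 regions of all 6 lists had 8.02 and 8.88, with 22 and 18 fragments. The regions of all 6 lists in other windows had the same median folds at 0 h, but on 33 and 25 fragments.

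The 893 regions of all 6 lists were measured at each time, and their fold percentile was more often lower than higher at 24 h. The percentile was lower in both 24 h libraries than in both 0 h libraries for 288 of them (32.3%, where 26.5% of such regions were called in all windows). It was higher in both for 135 (15.1%, where 20.2% were called). The median change was −3.10 points, with quartiles of −13.0 and 3.83, against a median of −1.09 in other windows. The change was graded over the classes of windows. With 11 to 20 regions per window 30.9% were lower and 18.8% higher, with a median of −2.31 points. The medians were −1.35 with 21 to 40, −0.837 with 41 to 80 and −0.801 with more than 80. Leaving out each of the 4 libraries in turn gave peak-poor medians of −3.80 to −2.03, and medians of −2.34 to 0.421 in other windows. At 1 h the balance was the other way, with 157 lower (17.6%, 18.9% in all windows) and 220 higher (24.6%, 24.2% in all windows) and a median change of 0.717 points. Requiring a peak in all 6 lists keeps out the regions without a later peak, so these counts leave them out.

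Individual regions show how far these averages reach. The strongest peak-poor region at 0 h among those in all 6 lists, 14:83108767-83109228, had folds of 24.1 and 25.8 at 0 h, 20.03 and 22.2 in the 1 h libraries, and 24.4 and 20.8 at 24 h. Its percentile was 99.87 or higher in each list. X:136520312-136520661, which lies 129.7 kb from the next region present in both 0 h libraries, had folds of 22.5 and 28.8 at 0 h, 22.5 and 18.9 in the 1 h libraries, and 18.8 and 24.4 at 24 h. The next strongest, 15:24114388-24114964, 13:87983380-87983869 and 18:27291698-27292366, stood at a percentile of 98.63 or higher in every list. These 5 sites kept their place near the top at all 3 times.

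Other regions with high 0 h percentiles had no peak at 1 h or 24 h. The first by 0 h percentile was X:91476319-91477074, with a mean percentile of 98.4. X:92186803-92187407 had folds of 16.4 and 13.6 at 0 h, on 43 and 25 fragments, and no peak at 1 h or 24 h. 10:68874576-68875139 had 13.0 and 14.3, both at percentile 93.3. 4:133681594-133681913 had 13.9 and 10.9, and 10:20735750-20736271 had 11.5 and 10.7. None of the 5 had a peak in any of the 4 later lists.

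A further group was weaker at 1 h and without a peak at 24 h. X:87610150-87611076 had folds of 5.00 and 5.89 at 1 h, against 12.4 and 15.1 at 0 h. The fragments at its summit numbered 11 and 13 at 1 h, against 34 and 28 at 0 h. 12:73922652-73923678 had 3.75 and 7.10 at 1 h, on 8 and 17 fragments, against 12.9 and 12.3 at 0 h, on 80 and 49. In both regions the 1 h libraries lay below the 0 h libraries on fold and on fragments. The same holds for 16:64512055-64512907, X:89626999-89627569 and X:21429636-21430569, whose mean percentile was 19.6 to 39.1 at 1 h, against 83.1 to 87.8 at 0 h.

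The largest fall among regions that kept a peak in all lists was at X:90585828-90586885. Its fold was 14.8 and 16.4 at 0 h, 5.42 and 5.46 in the 1 h libraries, and 3.85 and 3.58 at 24 h, and its summit held 44 and 34, 12 and 12, and 7 and 6 fragments at these times. The mean percentile at 24 h minus that at 0 h was −90.9 points, and the libraries of the 3 times did not overlap. 2:138935163-138935917 changed by −69.4 points and 2:138433045-138433842, in the same window, by −61.0. 16:7187841-7188455 changed by −63.5 points, with folds of 18.01 and 16.2 at 0 h, 4.58 and 5.04 in the 1 h libraries, and 5.30 and 5.62 at 24 h, so that its 24 h values lay slightly above those of 1 h. 2:125324130-125324481 changed by −57.6 points.

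Changes upward of similar size occurred in the same kind of window. 13:54707951-54708599 had folds of 4.20 and 3.13 at 0 h, 11.2 and 9.84 in the 1 h libraries, and 10.98 and 12.03 at 24 h, a change of 75.7 points by 24 h that was in place at 1 h. 2:141778530-141779014 had 5.73 and 3.65 at 0 h, 5.42 and 5.89 in the 1 h libraries, and 18.3 and 16.9 at 24 h, a change of 74.7 points. Its 1 h libraries were near those of 0 h, and both 24 h libraries were far above. 9:29044991-29045342, 4:64221218-64221607 and X:112201418-112201876 changed by 63.9, 57.2 and 55.4 points in the same direction. Being the extremes of 893 regions, these 10 are described without a test.

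The strongest region gained at 24 h was 13:87072716-87073215, with no 0 h peak, folds of 6.25 and 6.31 in the 1 h libraries, and 11.1 and 12.3 at 24 h. It lies in the same 1 Mb window as 13:87983380-87983869, one of the strongest regions of all 6 lists. 5:27186863-27187178 had a 1 h peak in one library only, with a fold of 4.62, and 10.6 and 10.2 at 24 h. 9:29348984-29349401 had 5.83 and 5.89 in the 1 h libraries, and 9.63 and 10.7 at 24 h. 4:183896930-183897239 and 10:10665790-10666306 reached mean percentiles of 68.1 and 66.6 at 24 h, and each had a weak peak in one 1 h library. The mean percentile of these 5 at 24 h was 66.6 to 86.2, while that of the 10 named lost regions at 0 h was 83.1 to 98.4.

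**Figure D4:**
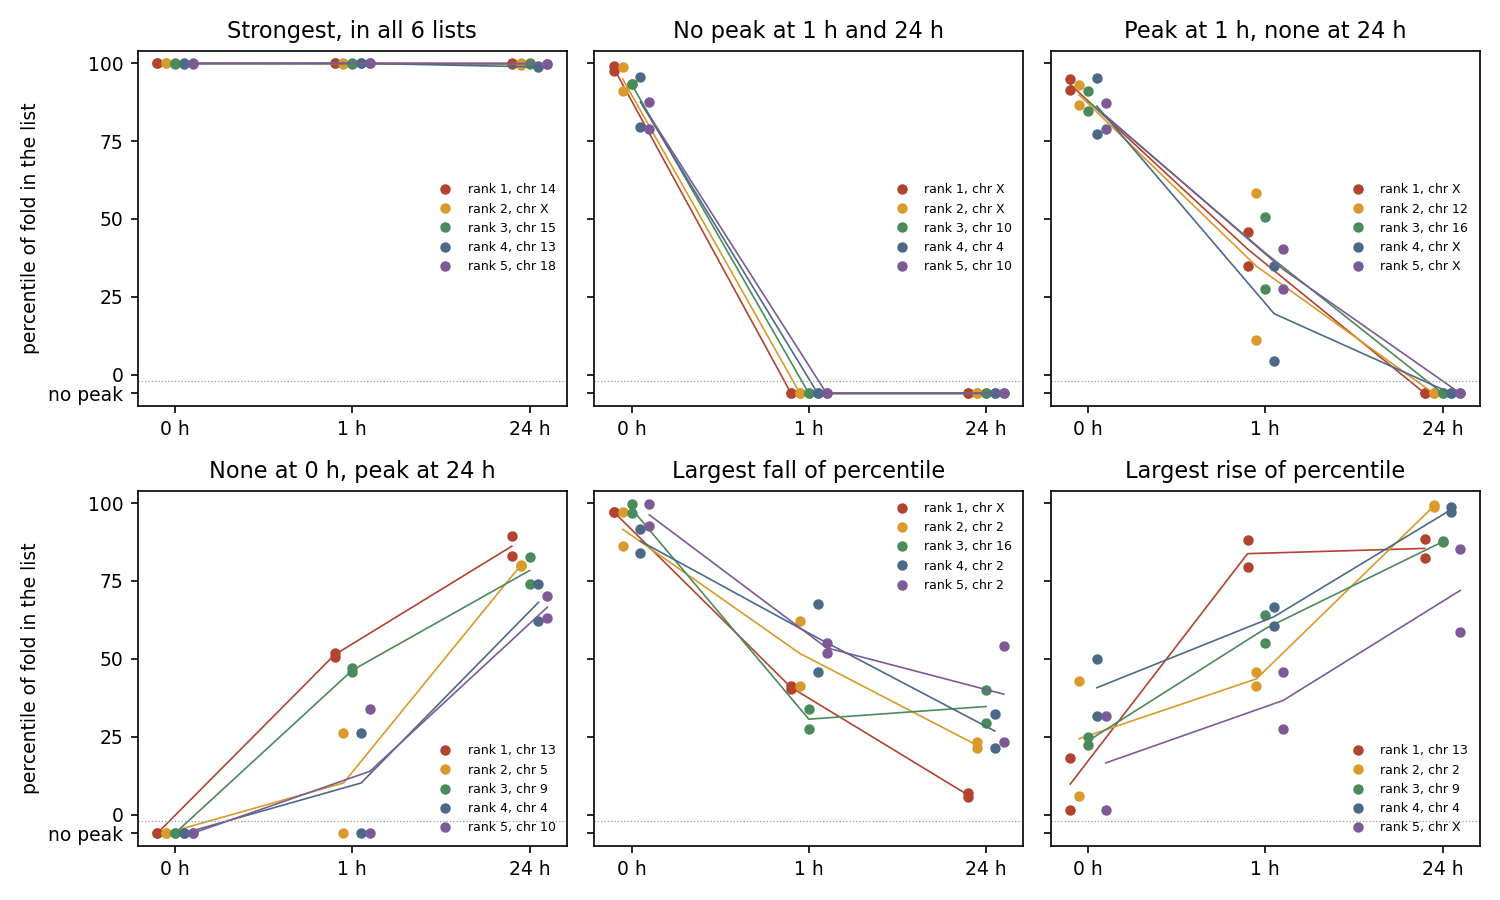
Percentile of fold within its list at 0 h, 1 h and 24 h for the 5 leading peak-poor regions of each of 6 lists, with 1 point per library and points below the dotted line for libraries without a peak. Lines join the mean position at each time and serve only to guide the eye, and the region with the largest fall has a mean percentile of 97.1 at 0 h, 40.8 at 1 h and 6.21 at 24 h.

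Losses were spread over the windows. No region was lost at 24 h in 53 of the 192 windows, 1 was lost in 56, and 2 or more in 83. No window lost all of its 0 h regions, and 190 held at least 1 region of all 6 lists. Gains at 24 h were found in 92 windows. Counted by regions present in both libraries, 116 windows had fewer at 24 h than at 0 h, 31 had as many and 45 had more.

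The window with most losses, 2:52000001-53000000, lost 7 of its 10 regions, 5 of which were already without a peak at 1 h. None of its 0 h regions was strong in both libraries. 12:73000001-74000000 lost 5 of 10, of which 2 were strong. 6:66000001-67000000 lost 5 of 9, also with 2 strong ones, and gained 3. 2:104000001-105000000 and 4:29000001-30000000 lost 5 of 10 and 5 of 9, each with 1 strong region among them.

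Among windows with most gains, X:112000001-113000000 gained 4 regions at 24 h and lost none, and its regions present in both libraries numbered 10 at 0 h, 11 at 1 h and 15 at 24 h. X:28000001-29000000 gained 5 and lost 1, with 8, 13 and 14 at the 3 times. 6:102000001-103000000 gained 5 and lost 3, with 8, 6 and 11. 2:185000001-186000000 gained 4 and lost 1, and 4:34000001-35000000 gained 4 and lost 3.

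**Figure D5:**
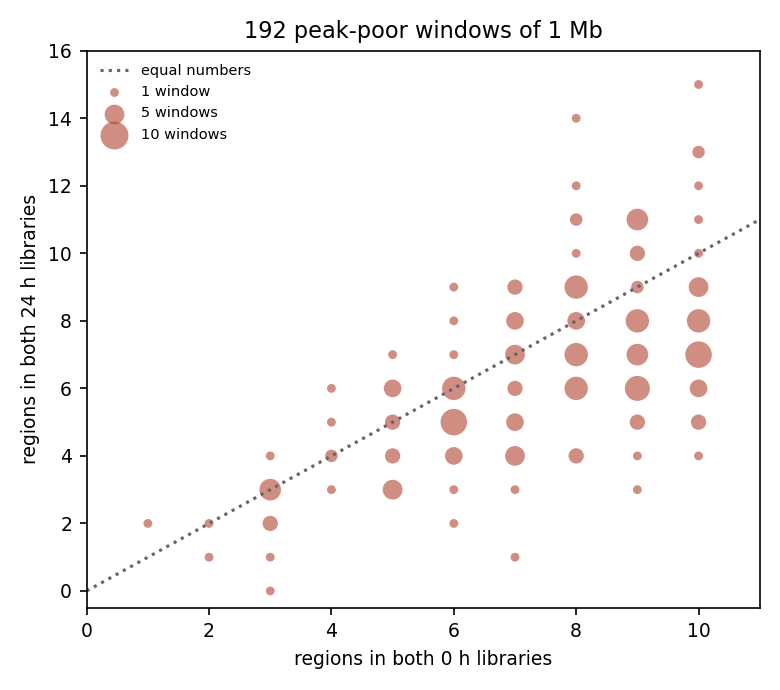
Number of regions present in both 24 h libraries (vertical axis) against the number present in both 0 h libraries (horizontal axis) in the 192 peak-poor windows, with circle area in proportion to the number of windows at that point. Circles below the dotted line of equal numbers are the 116 windows with fewer at 24 h, and those above it the 45 with more.

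Chromosome X held more peak-poor windows than any autosome. They made up 49 of its 154 windows (31.8%) and carried 752 of the 3306 regions. Chromosome 2 had 25 such windows, chromosome 4 had 18 and chromosome 10 had 13, while chromosomes 8 and 19 had none. Loss at 24 h took 69 of 339 regions on X (20.4%) and 213 of 1081 on the autosomes (19.7%), against 13.7% and 12.97% in other windows of X and the autosomes. For strong regions it was 16 of 148 (10.8%) on X and 34 of 443 (7.67%) on the autosomes, against 4.18% and 3.97%. On the autosomes alone, peak-poor windows held 1.24% and 1.27% of a library's regions at 0 h, 1.23% and 1.27% in the 1 h libraries, and 1.12% and 1.28% at 24 h, with the first 24 h library again the lowest.

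Peak-poor windows often adjoined one another. The 192 windows formed 144 separate stretches, 30 of which were 2 Mb or longer and held 78 windows. The longest, X:140000001-148000000, spanned 8 Mb with 52 regions present in both 0 h libraries, 17 of which were lost at 24 h (32.7%) and 4 at 1 h, while 7 regions were gained at 24 h. X:86000001-93000000 spanned 7 Mb with 45 such regions, and lost 12 at 24 h (26.7%) and 9 at 1 h. It holds 5 of the regions named above: both leading regions without a peak from 1 h on, 2 of those lost after 1 h, and the one with the largest fall. The 4 Mb of X:4000001-8000000 lost 1 of 25 regions, and 21 of them were in all 6 lists. These separate stretches of X thus differed widely, although each rests on few regions.

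Windows that were the last of a chromosome, or next to a window without any region, stood apart. There were 20 of them, with 253 regions. They lost 13 of 121 regions at 24 h (10.7%) and 1 of 58 strong ones (1.72%), against 269 of 1299 (20.7%) and 49 of 533 (9.19%) in the other 172 peak-poor windows. Their background was also unlike the rest: 36.0% and 39.8% of their 0 h peaks were at the genome-wide floor, against 79.1% and 81.6%. Among the 20 are the last windows of chromosomes 2, 4, 6, 7, 9, 13, 18, 21 and X, which can be partial. The parts of background and position in the lower loss of these 20 windows were not tested. The 172 others held 1299 of the 1420 peak-poor regions in both 0 h libraries and 269 of the 282 losses.

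Within peak-poor windows, the share lost differed little with the distance to the next region. Regions under 10 kb from the next 0 h region lost 19.4% at 24 h (55 of 283), those at 10 to 100 kb lost 20.2% (180 of 890), and those at over 100 kb lost 19.0% (47 of 247). In other windows the shares were 12.7%, 13.4% and 16.5%. At 1 h they were 12.4%, 10.7% and 11.7% in peak-poor windows, against 7.44%, 7.36% and 10.05% in other windows. These classes were defined after the data had been seen and were not tested.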

How the data were processed

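Accessibility was measured in 6 ATAC-seq libraries, 2 each at 0 h, 1 h and 24 h. The tools were FastQC, fastp, Bowtie2 and MACS2 and the build hg19, per the submitters' processing notes. Versions, duplicate removal and the shift for the transposase cut are not given in the sources used here. Each library has its own deposited peak list. The fold (a ratio), −log10 p, −log10 q and score of each peak are the authors' values; replicates were not pooled.

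Peaks were merged and windows counted as the report says, in Python 3.11.15 with pandas 2.3.3 and SciPy 1.17.1. A region's fold in a list is that of its highest peak, ranked over the list's regions. Pileups come from MACS2's usual formulas (pseudocount of 1, Poisson p), and a whole number matched the deposited −log10 p within 0.001 for every peak. They are not read counts, so no count model was used, and the lists give peaks above a threshold only. The merge, the calls and the pileups were tested on simulated lists.

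Named regions are the 5 with the highest mean 0 h percentile in all 6 lists, among those lost by 1 h and among those lost after 1 h, the 5 highest at 24 h among those gained, and the 5 with the largest fall and the 5 with the largest rise. Named windows are the 5 with most losses and the 5 with most gains. The members and lists were chosen with earlier results of these data known. Summit sequences had been planned and need hg19, which was not used here. Replicate numbers do not pair libraries by their labels, and their deviations correlated by 0.0137 to 0.0443 over 72695 regions, so libraries were not paired. Comparisons with 0 h in windows chosen at 0 h are given without a test. Alternatives changed the limit, the position of the windows, the time that chose them, the peak threshold, the list length, the merging, the libraries and the matching on strength.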

Additional observations from a re-analysis of the deposited data

How the results depend on the processing

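With 2 libraries per time no exact permutation or sign-flip test could pass 0.05, and outliers among 2 libraries could not be tested. As reported, the share of a library's regions lying in peak-poor windows differed by −0.00836 points at 1 h and −0.0538 at 24 h. It was −0.204 and −0.159 with a −log10 q of 5 or more, and −0.198 and −0.629 in windows chosen at the later time itself. Leaving out each library in turn, with the windows as chosen, it was −0.0322 to 0.0154 points at 1 h and −0.150 to 0.0428 at 24 h. It was positive at 1 h without 0h replicate 2 (0.00269) and without 1h replicate 1 (0.0154), at 24 h without 24h replicate 1 (0.0428) and with a limit of 5 regions per window (0.00519), and, with lists of equal length in the windows as chosen, at both times (0.00496 and 0.0301). The difference in median fold percentile was also of the opposite sign, at 1 h, with a limit of 20 (0.398) and with peaks under a −log10 q of 5 removed (1.21). At 24 h it was so with limits of 5 (1.16) and 20 (1.90), windows shifted by 0.5 Mb (0.129) and a −log10 q of at least 5 (0.873). The cause was not tested.

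The share of 0 h regions without a peak moved to 33.3% at 1 h with windows chosen at 1 h, and to 44.5% at 24 h with windows chosen at 24 h. With lists of equal length it was 26.95% at 1 h and 32.7% at 24 h in the windows as chosen, a setting added after the data had been seen, and 27.3% and 33.9% with windows chosen again from the shortened lists. The excess of peak-poor over other windows at 24 h was 16.0 points with windows chosen at 1 h, 18.5 with those chosen at 24 h, 14.4 with a −log10 q of at least 10, and 9.95 within steps of fold. It had the same sign in all of these. Of the main values recomputed under these alternatives, 84 kept their sign or, for shares and the excess, stayed within their spread over pairs, 10 moved and 12 changed sign. For differences between times the sign alone was compared.

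With libraries of the same replicate number paired as a block, the share of a library's regions differed by −0.00836 points at 1 h and −0.0538 at 24 h, the shares without a peak were 30.3% and 39.3%, the median percentile differed by −2.82 points at 1 h and −1.96 at 24 h, and the excess was 12.9 points.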
